A study of Mus musculus with 5 samples.

Results

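The inflammatory CCL chemokine genes Ccl2, Ccl7, Ccl11, Ccl12 and Ccl8 lie side by side on mouse chromosome 11, and 14 listed ATAC-seq peaks fell within or beside them. The peaks were chosen by position, from the deposited peak lists, as those that touched 82015577 to 82136799 (mm10), which is 20 kb below the lowest gene start to 20 kb above the highest gene end. The locus itself was picked with results of these lists known, so the values at these genes are given as a description, with no test. Where intervals of several libraries overlapped by at least 1 bp they were joined into 1 region, which left 10 regions of 232104 in the whole series.

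ATAC-seq reads open chromatin through the cuts of a transposase. The cells were lineage-depleted bone marrow, labelled HSPC, which stands for haematopoietic stem and progenitor cells. The Smc3-het group (2 libraries) had the genotype Mx1-Cre+, inv(16);Smc3 D/+ and the Smc3-wt group (3 libraries) Mx1-Cre+, inv(16);Smc3 +/+. Mx1-Cre, inv(16) and PIPC were common to all 5 libraries, so there was neither an untreated library nor one without inv(16). PIPC mimics viral double-stranded RNA and provokes an interferon response, and Mx1-Cre is driven by an interferon-responsive promoter that is not restricted to blood cells. The sources used here do not give the ages, the time after PIPC or whether each library came from its own mouse. In human leukaemia inv(16) fuses the core binding factor gene CBFB to MYH11, and Smc3 encodes a subunit of the cohesin ring. The question of the study is how a reduced dose of cohesin acts together with inv(16).

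CC chemokines are small secreted proteins that bind to receptors on white blood cells and draw them along a gradient. Ccl2, Ccl7, Ccl12 and Ccl8 belong to the monocyte chemoattractant proteins, and Ccl11 is eotaxin, which attracts eosinophils. Ccl2 is known as the main signal by which monocytes leave the bone marrow through the receptor Ccr2, and stromal cells and monocytes induce it within hours of a microbial or viral stimulus. NF-kB, AP-1 and interferon-regulated factors are the known inducers of this group of genes.

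Promoter sequences were at hand for Ccl12 and Ccl8, and are shown because each overlapped 1 listed peak. They run from before to just after the gene start, 300 bases on the + strand (RefSeq, GRCm38.p6, the same build as mm10), at chr11:82101595-82101894 for Ccl12 and chr11:82114935-82115234 for Ccl8. Capitals mark the matches to TATAAA for the TATA box and to GGAAGT or its reverse complement (ETS factors).
Ccl12: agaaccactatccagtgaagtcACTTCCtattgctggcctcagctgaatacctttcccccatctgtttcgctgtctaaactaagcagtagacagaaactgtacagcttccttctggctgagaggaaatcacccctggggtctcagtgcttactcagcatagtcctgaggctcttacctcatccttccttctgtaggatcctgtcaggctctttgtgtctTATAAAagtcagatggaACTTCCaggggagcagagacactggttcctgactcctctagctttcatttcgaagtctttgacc
Ccl8: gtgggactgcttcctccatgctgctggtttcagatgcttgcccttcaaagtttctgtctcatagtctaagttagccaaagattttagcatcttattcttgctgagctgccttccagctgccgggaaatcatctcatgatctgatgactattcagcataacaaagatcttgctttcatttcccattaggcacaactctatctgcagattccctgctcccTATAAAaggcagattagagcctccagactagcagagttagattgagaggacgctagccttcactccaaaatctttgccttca
The peak of Smc3-wt replicate 1 covered 119 of the 300 bases of the Ccl12 promoter, from its 5′ end, and that of Smc3-wt replicate 2 covered 238 of the 300 bases of the Ccl8 promoter. The TATA box began at −31 from the gene start in Ccl12 and at −32 in Ccl8, whereas 13.6% of all 32841 promoters in the table held one anywhere. The ETS letters were found at −228 and −14 in Ccl12, not in Ccl8, and in 23.8% of all promoters. On both strands, neither promoter held the NF-kB consensus (4.51% of all promoters), TGANTCA for AP-1 (7.81%), GAAANNGAA for interferon response (8.56%), TTCNNNGAA for STAT factors (8.30%), TTGCNNAA for C/EBP (10.8%), TGTGGT for RUNX (16.8%) or AGATAA for GATA (11.2%). The ETS matches overlapped no other motif searched. Both promoters were poor in CpG, with 2 each against a median of 7 over all promoters. Aligned end to end, the pair matched in 177 of 321 columns (55.1%). Promoters of Ccl2, Ccl7 and Ccl11 are not printed.

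Few sites of the locus were listed in any library, and the genotypes shared 1 of them. In the full lists the window held 1 and 1 peaks in Smc3-het replicates 1 and 2, against 5, 4 and 3 in Smc3-wt replicates 1, 2 and 3. Every Smc3-wt library thus had more peaks than either Smc3-het library, as was the case in 45.6% of 22446 windows of the same length along the genome. The lists themselves differed in length, with 26885 and 36467 peaks in Smc3-het against 65880, 102822 and 121224 in Smc3-wt libraries. Each list was therefore also cut, by −log10 p, to its 26885 strongest peaks. In these equal-size lists the window held 1 and 1 peaks in Smc3-het, against 2, 1 and 1 in Smc3-wt libraries, and the groups overlapped. The median window of the same length held 0 peaks in each equal-size list, so the chemokine window was not emptier than most. In full lists, 27.6% and 37.9% of windows held more peaks than it in Smc3-het, against 20.3%, 42.9% and 55.5% in Smc3-wt libraries.

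**Figure D1:**
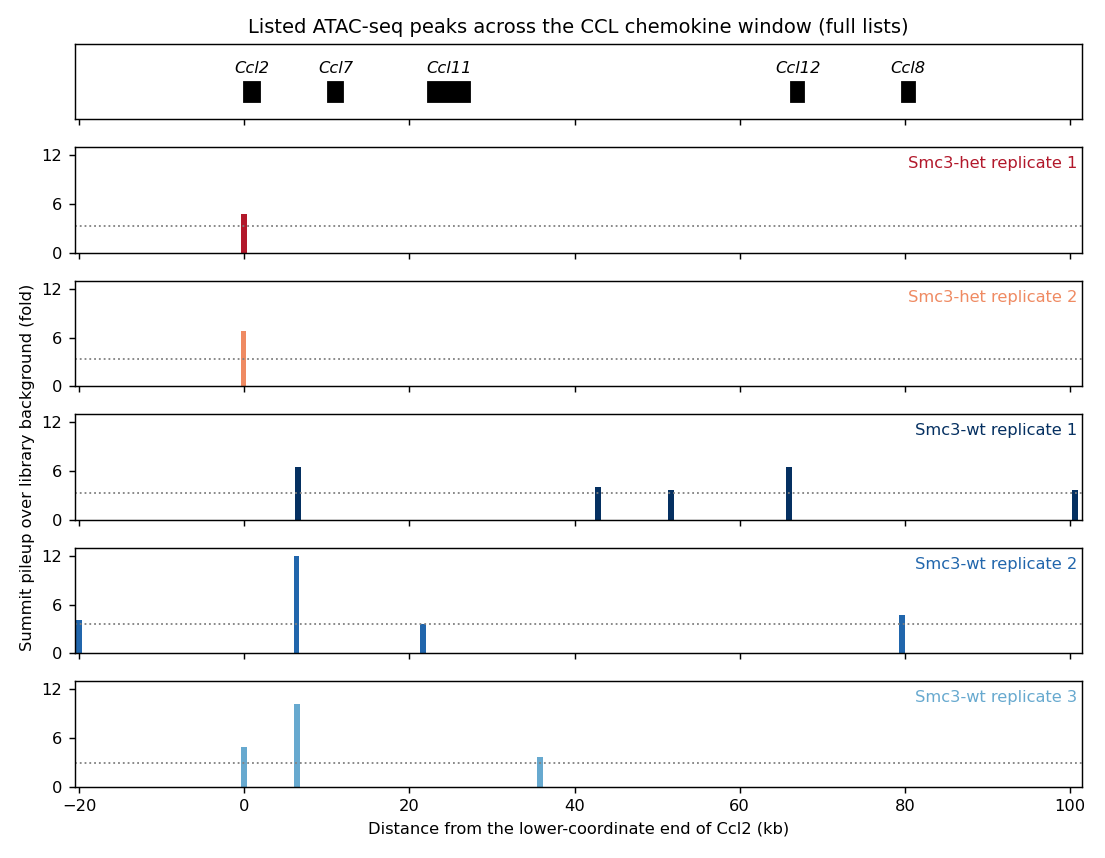
Listed peaks of each library (rows, Smc3-het above Smc3-wt) by distance from the lower-coordinate end of Ccl2 in kb. Bar height is summit pileup over library background, bars are drawn wider than the peaks, the dotted line is the weakest peak of that library's whole list, and black boxes are the 5 genes. Both Smc3-het libraries have their single peak at Ccl2, and all 3 Smc3-wt libraries have one 6.19 to 6.38 kb above it.

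The end of Ccl2 was the site listed in both Smc3-het libraries. Ccl2 (gene 20296) spans 82035577 to 82037452, and the region over its lower end, which in the mouse is the 5′ end, ran from 82035215 to 82035779, 565 bp. Peak strength is given as the summit pileup, the number of fragments over the highest base, divided by the library's background coverage. It was 4.73 and 6.84 in Smc3-het replicates 1 and 2, from pileups of 17 and 20, and 4.96 in Smc3-wt replicate 3, from a pileup of 15. Smc3-wt replicates 1 and 2 listed no peak there. The value in Smc3-wt replicate 3 lay between those of the Smc3-het libraries. The summits stood at −67 and −17 bp from the gene start in Smc3-het and at −78 bp in Smc3-wt replicate 3, a spread of 61 bp.

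In the full lists, 1 of the 10 regions was listed by both Smc3-het libraries and by 1 of 3 Smc3-wt libraries, a pattern of 0.16% of all regions. None was listed by both Smc3-het libraries and no Smc3-wt library (0.0745% of all regions). In equal-size lists the Ccl2 region had that second pattern, since the peak of Smc3-wt replicate 3 had a −log10 p of 6.86 and that library's equal-size list ended at 14.4. It was found in 1.08% of the 56747 equal-size regions. Of the 613 equal-size regions with it, 192 (31.3%) were, like Ccl2, in 1 of 3 full Smc3-wt lists. The median strength of the 613 was 5.57 and 6.16 in Smc3-het replicates 1 and 2, so the Ccl2 peak was below that median in the first and above it in the second. The lowest −log10 p of the equal-size lists was 3.47 and 5.66 in Smc3-het, against 9.84, 10.4 and 14.4 in Smc3-wt libraries, which means that these lists reached weaker peaks in Smc3-het.

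The site listed in all 3 Smc3-wt libraries lay between Ccl2 and Ccl7, a second monocyte chemoattractant gene (gene 20306, 82045712 to 82047525). It ran from 82041668 to 82042343, 676 bp, in the 8.26 kb between the genes, and its nearest member was Ccl7, 3.37 to 3.64 kb away. Its strength was 6.56, 11.9 and 10.2 in Smc3-wt replicates 1, 2 and 3, from pileups of 18, 23 and 31, and neither Smc3-het library listed it. These were the highest values of the locus in each Smc3-wt library, in Smc3-wt replicate 1 shared with the peak at Ccl12. The summits of Smc3-wt replicates 1 and 2 were 4 bp apart, at 82041957 and 82041961, and that of Smc3-wt replicate 3 was at 82041771.

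This was the 1 region of the 10 that no Smc3-het library and every Smc3-wt library listed in full, against 2.44% of all regions, and it had the same pattern in equal-size lists, against 1.91% of all regions. In Smc3-wt replicate 1 its −log10 p of 9.88 was just above the 9.84 at which that list was cut. Regions of this pattern in equal-size lists, 1086 in number, had a median strength of 10.6, 12.5 and 13.9 in Smc3-wt replicates 1, 2 and 3. The region between Ccl2 and Ccl7 was below that median in each. Gene ends of Ccl7 held no listed peak in any library.

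**Figure D2:**
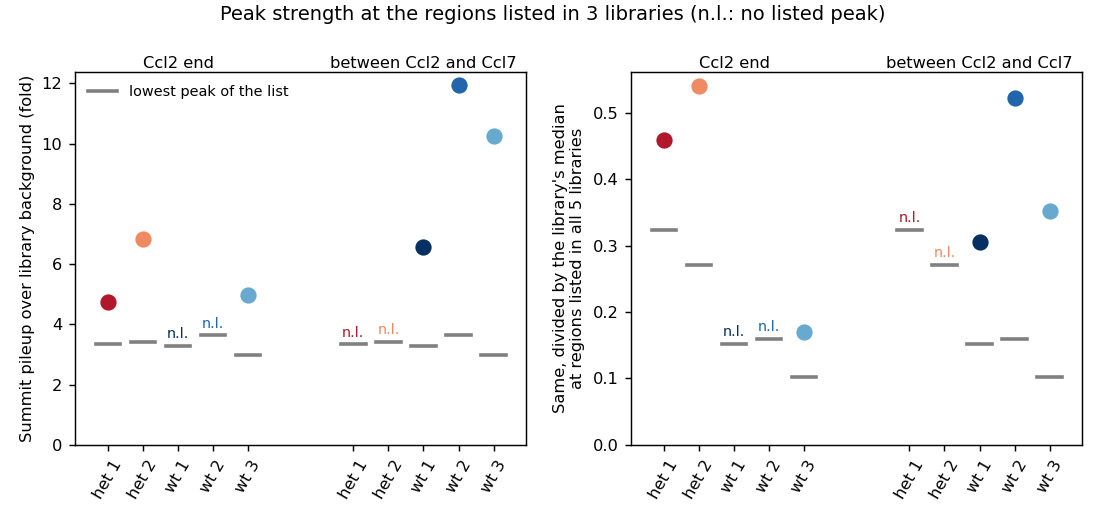
Summit pileup over library background (left) and the same divided by the library's median at regions listed in all 5 libraries (right), for the regions listed in 3 libraries; points are single libraries, grey bars the weakest peak of each list, and n.l. marks libraries without a listed peak. On the left the Smc3-het and Smc3-wt points at Ccl2 lie within 4.73 to 6.84. On the right those of Smc3-het lie at 0.459 and 0.541 and that of Smc3-wt replicate 3 at 0.170. The latter is below the weakest peak of either Smc3-het list (0.324 and 0.270), so any listed Smc3-het peak would lie above it.

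A library that lists no peak has no measured value at a site. The weakest peak of a list gives the lowest strength that any listed peak had. It was 3.34 and 3.42 over background in Smc3-het libraries, against 3.28, 3.63 and 2.98 in Smc3-wt libraries. Sites with a higher local background had to reach more. The median local background of listed peaks was 5.15 and 3.15 in Smc3-het, against 2.84, 1.93 and 3.02 in Smc3-wt libraries. Libraries also differed in strength at shared sites. At regions listed in all 5 libraries the median pileup over background was 10.3 and 12.7 in Smc3-het, against 21.5, 22.8 and 29.1 in Smc3-wt libraries. Relative to this median, the Ccl2 peak stood at 0.459 and 0.541 in Smc3-het replicates 1 and 2, and at 0.170 in Smc3-wt replicate 3. The weakest listed peaks of Smc3-wt replicates 1 and 2, which lacked it, stood at 0.153 and 0.159. This scale was added after the data had been seen. On it both Smc3-het values at Ccl2 were above that of Smc3-wt replicate 3 and above those weakest peaks. That order was fixed in advance, since the weakest peaks of Smc3-het replicates 1 and 2 stood at 0.324 and 0.270. Any peak listed in Smc3-het would have shown it, so it tells nothing of Ccl2 itself. On the scale of background the value of Smc3-wt replicate 3 lay between those of Smc3-het.

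For the region between Ccl2 and Ccl7 the relative strength was 0.305, 0.523 and 0.352 in Smc3-wt replicates 1, 2 and 3. The weakest listed peaks of Smc3-het replicates 1 and 2 stood at 0.324 and 0.270. A peak as strong, on this scale, as that of Smc3-wt replicate 1 would have been below the weakest peak of Smc3-het replicate 1, and above that of Smc3-het replicate 2. The values of Smc3-wt replicates 2 and 3 were above the weakest peak of either Smc3-het library. That does not show that such a peak would have been listed there. With no measured value in Smc3-het, whether the site was less open there is not known. Fewer cells with an open site, a site less open in each cell and a weaker library cannot be told apart in bulk tissue.

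The remaining genes were listed in 1 Smc3-wt library each. Ccl11 (gene 20292, 82057832 to 82062955) had a peak of 3.63 over background in Smc3-wt replicate 2, 423 bp from its lower end, at 82057017 to 82057409. Ccl12 (gene 20293, 82101845 to 82103399) had one of 6.56 in Smc3-wt replicate 1, 132 bp from its start, with the summit at −279 bp from it, 5′ of the printed promoter, which the inner part of the peak overlapped. Ccl8 (gene 20307, 82115185 to 82116799), whose product in the mouse acts on the receptor Ccr8, had one of 4.67 in Smc3-wt replicate 2, with the summit at −20 bp, and the peak covered the printed TATA box. The Ccl8 region ran from 82114997 to 82115373 and the Ccl12 region from 82101373 to 82101713. Neither Smc3-het library listed any of these sites.

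In all, 4 of the 5 genes had a gene-end peak, within 1 kb of either end, in at least 1 library, against 72.7% of 21883 protein-coding genes. None had one in all 5 libraries, against 44.2% of protein-coding genes. Of the 10 regions, 8 were listed in a single library, against 78.3% of all regions, and those 8 were all of Smc3-wt libraries, whose lists are longer. The other 5 single-library regions lay 8.31 to 19.9 kb from the nearest gene, with strengths of 3.64 to 4.15. Between Ccl11 and Ccl12, 38.9 kb apart, there were 4 regions, and between Ccl12 and Ccl8, 11.8 kb apart, there was none.

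At the limits of the window, the outermost region inside was at 82015381 to 82015672 in Smc3-wt replicate 2, which reached into it from below, with 4.15 over background. The nearest peak outside was 1.37 kb below, in Smc3-wt replicate 3, with 5.29. On the upper side the last region inside, in Smc3-wt replicate 1, had 3.64, and the nearest peak outside, 5.17 kb above in Smc3-wt replicate 3, had 2.98.

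**Figure D3:**
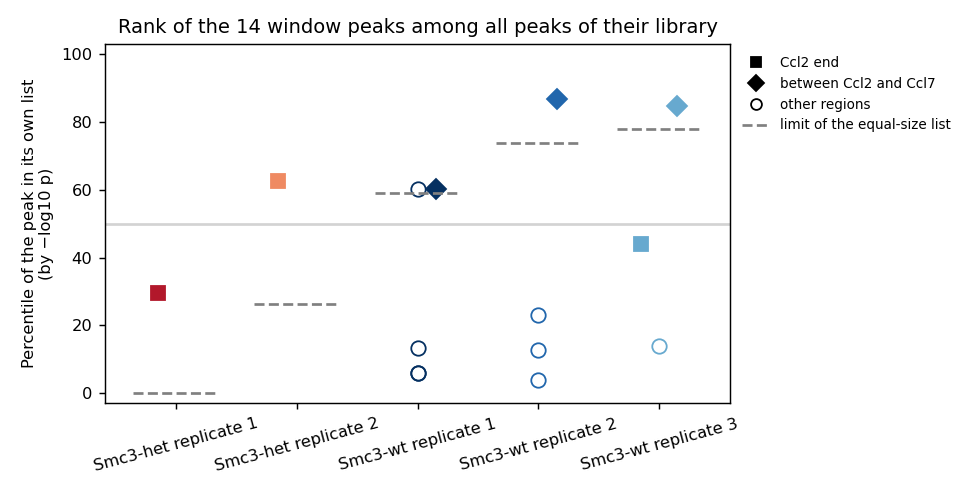
Percentile of each of the 14 peaks among all peaks of its own library by −log10 p, Smc3-het libraries left of Smc3-wt; squares are the Ccl2 end, diamonds the region between Ccl2 and Ccl7, open circles the other regions, and dashes the limit of the equal-size list. The diamonds of Smc3-wt replicates 2 and 3 stand at 86.9 and 84.8, and 9 of the 14 peaks lie below 50.

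Within their own lists these peaks ranged from weak to fairly strong. By −log10 p, 9 of the 14 ranked below the median peak of their library. Any list has as many peaks below its median as above, so 9 of 14 is near an even split. The Ccl2 peak was at percentile 29.7 and 62.7 of the lists of Smc3-het replicates 1 and 2, and at 44.1 in Smc3-wt replicate 3. The region between Ccl2 and Ccl7 was at 60.1, 86.9 and 84.8 in Smc3-wt replicates 1, 2 and 3. Peak lengths ran from 284 to 526 bp with a median of 401 bp. Summed over the window, the peaks covered 429 and 508 bp in Smc3-het, against 1984, 1395 and 1244 bp in Smc3-wt libraries.

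The highest peak of the window was 4.73 and 6.84 over background in Smc3-het, against 6.56, 11.9 and 10.2 in Smc3-wt libraries, 5.79 ± 1.49 against 9.58 ± 2.75 (SD, n = 2 and 3), with overlap between the groups. Against genes with a peak in every library these values were low. Among 14770 such protein-coding genes with a listed peak within 20 kb in all 5 libraries, 2.82% and 8.46% had a lower highest peak in Smc3-het libraries, against 2.86%, 8.94% and 5.57% in Smc3-wt libraries. The genes whose highest peak was most like that of the window over the 5 libraries, by Euclidean distance of log2 values, were Acpp (0.159), Igf1 (0.185), Kcnn3 (0.247), Cyp27a1 (0.247) and Sox21 (0.249). The median distance over all genes compared was 3.86. For Acpp, a locus on chromosome 9, the highest peak was 4.73 and 6.84 over background in Smc3-het, against 7.29, 11.9 and 10.6 in Smc3-wt libraries.

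Other chemokine and receptor loci, which the rule did not use, went in different directions in equal-size lists. Their gene lists were also chosen with earlier results of these data known, so the tests below are not independent support. Peaks within 20 kb of the second CC cluster on chromosome 11 (Ccl3, Ccl4, Ccl5, Ccl6 and Ccl9) numbered 6 and 4 in Smc3-het, against 2, 3 and 2 in Smc3-wt libraries. Those around the receptor genes of chromosome 9 (among them Ccr1, Ccr2 and Ccr3) numbered 8 and 9 in Smc3-het, against 14, 11 and 13 in Smc3-wt. Those around 7 CXC chemokine genes of chromosome 5 numbered 2 and 6 in Smc3-het, against 9, 9 and 10 in Smc3-wt. The groups did not overlap at any of these 3. Among windows of the length of the chemokine window, 3.5% had more peaks in every Smc3-wt than in any Smc3-het equal-size list, and 3.23% the reverse. The median such window held 0 peaks in each equal-size list, whereas the clusters held 2 to 14. Ties are commoner where counts are low, so these shares are not a like measure for the clusters.

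The means were 5 ± 1.41 against 2.33 ± 0.577 peaks at the second CC cluster, 8.5 ± 0.707 against 12.7 ± 1.53 at the receptors, and 4 ± 2.83 against 9.33 ± 0.577 at the CXC genes (SD, n = 2 Smc3-het and 3 Smc3-wt). Each had a two-sided exact permutation p of 0.2, also after Benjamini-Hochberg adjustment over the 3. With the smaller tail doubled, as in this test, that is the smallest p that 2 against 3 libraries can give. In full lists the second CC cluster had 6 and 5 peaks in Smc3-het, against 5, 9 and 13 in Smc3-wt libraries, with the direction turned. With no flank, equal-size lists held 3 and 1 peaks in the second CC cluster in Smc3-het, against 2, 1 and 1 in Smc3-wt, and 2 and 4 in the receptor cluster in Smc3-het, against 3, 3 and 4 in Smc3-wt, and the groups overlapped. In half-length lists the CXC genes had 2 and 4 peaks in Smc3-het, against 4, 3 and 4 in Smc3-wt, which overlapped too. The CXC groups also met with no flank (0 and 1 against 3, 1 and 3) and in lists ranked by fold (2 and 6 against 6, 8 and 7). The receptor groups met at a −log10 q of at least 5 (3 and 6 against 6, 5 and 9). At a −log10 q of at least 10 the groups overlapped at all 3 clusters. The platelet chemokine genes Ppbp and Pf4 lie 6.89 and 10.8 kb from Cxcl5, so that the CXC count holds their peaks too.

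**Figure D4:**
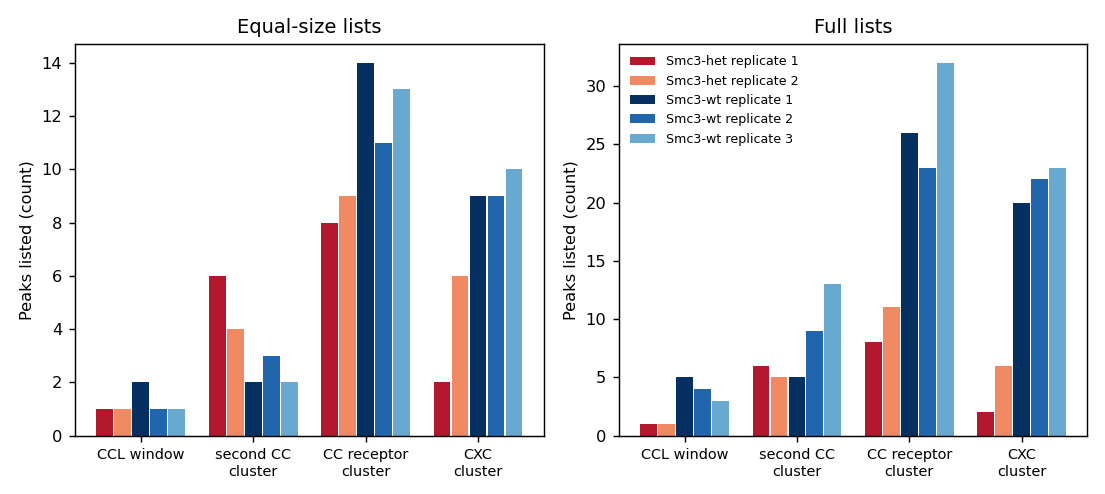
Number of listed peaks in the CCL window and within 20 kb of the genes of 3 other clusters, by library (bars, Smc3-het left of Smc3-wt), in equal-size lists (left) and full lists (right). In equal-size lists the CCL window has 1 or 2 peaks in every library, the second CC cluster more in Smc3-het (6 and 4) than in Smc3-wt (2, 3 and 2), and the other clusters fewer.

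Among the receptors, Ccr2, the receptor of Ccl2, Ccl7 and Ccl12, had no gene-end peak in either Smc3-het list, while every full Smc3-wt list had one, as did the equal-size lists of Smc3-wt replicates 1 and 3. Its highest peak within 20 kb was 4.73 and 4.79 over background in Smc3-het, against 12.4, 12.5 and 19.8 in Smc3-wt libraries. As given above, strength at regions listed in all 5 libraries was also lower in Smc3-het. Ccr3, the eotaxin receptor of eosinophils, had 0 and 1 peaks within 20 kb in Smc3-het, against 2, 3 and 1 in Smc3-wt equal-size lists. Ccr1 had 3 and 3 peaks in Smc3-het, against 3, 3 and 4 in Smc3-wt equal-size lists. Among other receptors, Ackr1, an atypical receptor that binds chemokines without signalling through G proteins, had a gene-end peak in all 5 libraries. It had 2 and 4 peaks within 20 kb in Smc3-het, against 8, 5 and 8 in Smc3-wt equal-size lists. How many of all genes have counts within 20 kb that are apart in this way was not computed. Ackr2, a scavenger of CC chemokines, had a gene-end peak in both full Smc3-het lists and in no Smc3-wt list. It had 3 and 1 peaks within 20 kb against 2, 3 and 3, Ccr4 had 0 and 2 against 2, 0 and 1, and Ccr8 had 2 and 1 against 1, 1 and 1.

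In the second CC cluster, Ccl3 and Ccl4, whose gene models overlap, shared a gene-end peak in both Smc3-het libraries and in Smc3-wt replicates 1 and 3. Ccl5 had no gene-end peak in any library, and Ccl6 had one in the full list of Smc3-wt replicate 3. Cxcl3 and Cxcl2, neutrophil chemoattractants, had a gene-end peak in every full Smc3-wt list and in neither Smc3-het list. The highest peak within 20 kb of Cxcl3 was 11.0 over background in Smc3-het replicate 2 and none in Smc3-het replicate 1, against 30.6, 15.1 and 34.4 in Smc3-wt libraries. The same was true of the gene end of Tlr3, the receptor for double-stranded RNA, whose highest peak was 5.57 and 4.79 in Smc3-het, against 14.9, 12.5 and 17.9 in Smc3-wt libraries. These strengths were not scaled for the difference between libraries at shared sites. The median at regions listed in all 5 libraries was 10.3 and 12.7 in Smc3-het, against 21.5, 22.8 and 29.1 in Smc3-wt.

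Over the 45 genes of the 5 chemokine, receptor and inducer lists, 4 gene ends (Ccr2, Cxcl2, Cxcl3 and Tlr3) were thus in every full Smc3-wt list and no Smc3-het list, against 2.68% of protein-coding genes. The reverse held for 1 (Ackr2), against 0.0366% of protein-coding genes. In equal-size lists, Cxcl3 and Tlr3 kept the first pattern, 2 of 45 against 0.544% of protein-coding genes, and 0 of 45 had the reverse, against 0.402%. Of 22 genes of the inducing pathways, which include the NF-kB inhibitors Nfkbia and Tnfaip3, 19 had a gene-end peak in 5 of 5 full lists, against the 44.2% of all protein-coding genes given above. Among the 19 were the NF-kB subunit genes Nfkb1, Rela and Relb, while Nfkb2 had no peak within 1 kb of a gene end in any list. All 5 libraries did list peaks within 20 kb of Nfkb2. The highest was 22.8 and 22.6 over background in Smc3-het, against 44.1, 33.2 and 48.9 in Smc3-wt libraries, not scaled for strength at shared sites. Equal-size lists held 64 and 65 peaks within 20 kb of the 22 genes in Smc3-het, against 68, 70 and 73 in Smc3-wt libraries. How often other gene sets of this size are apart by as much was not computed, so no difference at these genes is claimed.

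The marker lists gave a mixed picture of the cells. Over all protein-coding genes, 48.7% and 50.8% had a gene-end peak in full Smc3-het lists, against 57.0%, 60.9% and 63.3% in Smc3-wt, and 48.7% and 48.8% had one in equal-size Smc3-het lists, against 49.2%, 48.6% and 49.5% in Smc3-wt. Of 10 HSPC genes 8 and 6 had one in full Smc3-het lists, against 8, 9 and 9 in Smc3-wt, and 8 and 6 against 8, 7 and 6 in equal-size lists. Of 10 monocyte and macrophage genes, a cell type known to make Ccl2, 6 and 3 had one in Smc3-het against 7, 7 and 8 in Smc3-wt full lists, and 6 and 3 against 3, 1 and 5 in equal-size lists. Of 10 stromal and endothelial genes the equal-size lists held 4 and 3 against 2, 5 and 4, of 8 T and NK genes 1 and 2 against 1, 1 and 1, and of 6 B genes 1 and 1 against 1, 0 and 2. Of 8 neutrophil genes they held 0 and 0 against 1, 0 and 0, of 6 erythroid genes 2 and 3 against 4, 4 and 5, of 7 mast cell, basophil and eosinophil genes 1 and 1 against 3, 1 and 2, and of 6 megakaryocyte genes 2 and 3 against 3, 0 and 2. Whether the mix of cells or the strength of the libraries played a part in the peaks at Ccl2 and between Ccl2 and Ccl7 was not tested.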

How the data were processed

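Open chromatin was measured by ATAC-seq in 5 libraries, whose titles gave the group and the replicate number. Per the submitters' processing notes, reads were aligned with Bowtie2 to mm10 and peaks called with MACS2, with no version named in the notes. The deposited peak names show paired-end calling per library without mitochondrial reads. The deposited lists give, per peak, a coverage signal (summit pileup), a fold enrichment (the ratio of pileup to local background, per the file headers) and the −log10 p and −log10 q, whose headers were lost and which were recognised by order and values. These scores are the authors' own and serve to rank, filter or describe peaks; setting pileup over background side by side between libraries assumes comparable background.

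Contigs and the mitochondrion were left out, and peaks of 1 library that overlapped were merged. Library background was the commonest value solved from pileup and fold with MACS2's pseudocount of 1 (3.59 and 2.92 fragments per base in Smc3-het, 2.74, 1.93 and 3.02 in Smc3-wt libraries); at the window's peaks the local background was the same, but for 3.71 at Ccl2 in Smc3-het replicate 1. Mapped fragments per library were not used here. Genes came from RefSeq (GRCm38.p6), which the table gives without strand. Clusters outside the window were compared by two-sided exact permutation tests, in which the smaller tail was doubled. Whether each library is a separate mouse is not labelled, so their p-values cover only a spread among libraries that may be technical. Cxcl11, the eighth CXC gene planned, was not protein-coding in the table. Alternatives were −log10 q of at least 5 or 10, flanks of 0 or 50 kb, half-length or full lists, ranking by fold, another background estimate, a replicate block and leaving out each library. Merging, region patterns and the test were checked on simulated data. Python 3.11.15, pandas 2.3.3, numpy 2.4.6, scipy 1.17.1 and Biopython 1.88 were used. The window, gene lists and markers were chosen with earlier results of these data known. Named genes were the 5 members, list genes whose gene end was in every library of 1 genotype and none of the other, otherwise the first 4 of a list, Ccl1, and the 5 most alike genes outside 1 Mb of the window; in lists with such a gene, others among the first 4 were named as well after their values were seen. The values of 1 receptor gene are not reported here.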

Additional observations from a re-analysis of the deposited data

How the results depend on the processing

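The full-list difference in window peaks, −3 (Smc3-het minus Smc3-wt), became −0.833 when peaks needed a −log10 q of 5, −0.667 when they needed 10, and −5.5 with a 50 kb flank, and the length difference of −1073 bp was −317, −282 and −2285 bp under the same settings. The equal-size difference, −0.333 peaks, turned to 0.167 at a −log10 q of 5, where lists held 17309 peaks, and −3 in full lists. The difference in highest pileup over background, −3.80, was 0.107 relative to each library's median at shared regions. The second CC cluster, 2.67, was −3.5 in full lists. The causes were not tested. The other clusters kept their direction, except that the receptor cluster came to 0 at a −log10 q of 10. The receptor difference of −4.17 was −0.333 with no flank (exact permutation p 1) and the CXC difference of −5.33 was −0.667 in half-length lists (exact permutation p 0.8). Without Smc3-het replicate 1 the second CC cluster differed by 1.67 and the CXC genes by −3.33 peaks, and leaving out 1 library gave the window −3.5 to −2.5 peaks in full lists and −0.5 to 0 in equal-size lists. The cluster p ran up to 1 over the alternatives and never below 0.2. Ccl2 was in 1 of 2 Smc3-het lists with −log10 q of at least 5 and in none with half-length lists or at least 10. The region between Ccl2 and Ccl7 was in 2 of 3 full Smc3-wt lists at 10 in 1 half-length list, and in equal-size lists in 1 of 3 at 5 and 0 of 3 at 10; it was in no Smc3-het list under any of these. With the replicate block the full-list difference was −3.5. Deviations from the group mean, at regions listed in all 5 libraries, correlated at −0.0637 and −0.0673 between same-numbered libraries. With 2 Smc3-het libraries these deviations mirror each other, so the values cannot decide whether equal numbers mark a pair. Weak peaks and short Smc3-het lists limit what can be compared here. Highest pileup with −log10 q of at least 10 gave no Smc3-het value.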

Other observations

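Just above the window, at Ccl1, the CC chemokine gene next to this group (chromosome 11, 82176666 to 82179812), the libraries listed different sites; these were singled out after their values had been seen. Smc3-het replicates 1 and 2 listed overlapping peaks at 82183250 to 82183635 and 82182687 to 82183907, 3.44 and 2.88 kb above the gene, with 5.85 and 6.50 over background. No Smc3-wt library listed a peak there, in full lists, a pattern of 0.0745% of all regions. In equal-size lists, which held both Smc3-het peaks, 1.08% of regions had this pattern. As the site was singled out by its values, these shares do not test it. Smc3-wt replicate 3 listed 5 other peaks within 20 kb of Ccl1, of which the strongest, at 82174570 to 82175153, had 8.27 over background. Another of the 5, at 82181600 to 82181887, 1.79 kb above the gene, lay close below the Smc3-het peaks, with 5.95. Smc3-wt replicate 2 listed 2 peaks within 20 kb, and Smc3-wt replicate 1 listed none. No gene end of Ccl1, within 1 kb, held a peak in any library.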
